A study of Cervus nippon with 40 samples.

Results

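The adrenal gland of male Sika Deer (Cervus nippon, Shuangyang breed) was profiled by small RNA sequencing, and its 4 libraries, of 40 in the series, were chosen by their organ label. The other 36 libraries came from antler, brain, heart, kidney, liver, lung, skeletal muscle, spleen and testes, with 4 libraries each. Each organ was sampled at 4 stages, juvenile at 1 year, adolescence at 3 years, adult at 5 years and aged at 10 years. No treatment or allele separates the groups. RNA from 3 deer was pooled for every library, and the study used 12 deer, so all 10 organs of a stage share the same 3 animals and each stage has other animals. An organ therefore had 1 library per stage. The spread between animals was not measured, and the p-values below rest on the spread between pooled libraries. The labels name adrenal tissue and no layer of it, so cortex and medulla were not read apart.

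The adrenal gland joins a cortex, which makes steroid hormones from cholesterol, with a medulla of neural crest origin, which releases catecholamines. MicroRNAs (miRNAs) are short RNAs that guide the silencing complex to messenger RNAs. miR-7 is known from neuroendocrine cells and neurons, the miRNAs of the imprinted DLK1-DIO3 cluster are known from brain, placenta and several endocrine glands, and the let-7 family is known for its rise as tissues mature.

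The deposited unit was RPM, the reads of a miRNA divided by all miRNA reads of its library and multiplied by 1000000. The adrenal libraries held 626605 reads in the juvenile, 855724 in adolescence, 598098 in the adult and 935346 in the aged stage, so that 1 read stood for 1.07 to 1.67 RPM. The other 36 libraries ranged from 41866 to 7759033 reads (median 744715). Names of known bovine miRNAs, which start with bta-, took 99.8% to 99.9% of the adrenal reads, and only these names were compared. RPM values sum to a fixed total, so a miRNA that fills a library lowers all others. A second scale was therefore used, in which TMM (trimmed mean of M values) resets the size of each library on the premise that the bulk of miRNAs do not change. The adrenal TMM factors were 1.55, 1.58, 3.09 and 2.21 from juvenile to aged, and values on this scale are called scaled. TMM sets 1 library as the reference. Averaged over each of the 40 libraries as the reference, a choice made after seeing the data, the factors were 1.98, 1.49, 1.92 and 1.94. Both versions are given where they differ.

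Of 336 known names found in any library, 229 had an adrenal read and 107 had none. A total of 129 names were read in all 4 adrenal libraries, and 76 had at least 10 reads in each. The 10 names read in adrenal and in no other organ had at most 2 reads each, so detection alone set no abundant miRNA apart. Another 8 names were read in adrenal and brain alone. They included miR-212 with 3 adrenal and 30 brain reads, miR-383 with 3 and 17, and miR-153 with 1 and 9, all known from neurons, and miR-410 of the imprinted cluster with 3 and 2.

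miR-7 led the adrenal profile. It held 47.4% of the juvenile reads, 59.1% in adolescence, 9.31% in the adult and 9.90% in the aged library, and its rank was 1, 1, 3 and 3. By mean RPM over the 4 libraries it was followed by let-7b with 120192 ± 97088 RPM (SD, n = 4), miR-409b with 56473 ± 24362 RPM, miR-145 of the vessel wall, miR-30c, miR-199a-3p of connective tissue cells and miR-26a. The remaining names in the top 10 were second names of the same reads. These were miR-3596 beside let-7b, with 367290 reads for each name, miR-3604 beside miR-199a-3p, with 101366 and 101391 reads, and miR-26c beside miR-26a, with 91656 and 91657 reads. The top 10 names took 82.6%, 86.7%, 80.3% and 78.6% of the reads from juvenile to aged. In the other 36 libraries this share ran from 76.7% to 99.3% (median 90.3%), so by this share the adrenal profile was among the broader ones. By its first name alone the younger pair was narrow. Its 47.4% and 59.1% lay above every library outside heart and skeletal muscle, at most 41.6%, in brain of the adolescence stage. miR-7 led the adrenal profile in the younger libraries and let-7b, with 19.7% and 21.1%, in the adult and aged libraries. miR-30c was the most even of the 10 leading names, at 33736, 33466, 42582 and 39357 RPM. Its adrenal mean of 37285 ± 4454 RPM (SD, n = 4) lay beside a mean of 37130.3 RPM over the other 9 organs.

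The markers chosen for adrenal were miR-7 and miR-409b, and both stood out in the adrenal libraries. They were chosen with earlier results of these data known, so their levels describe the label and are no independent check of it. miR-7 was read at 474297 RPM in the juvenile, 590536 in adolescence, 93085 in the adult and 98969.8 in the aged adrenal, against a mean of 12791 RPM over the other 9 organs. The highest of the other 36 libraries was testes of the adolescence stage at 85407 RPM, followed by juvenile brain at 81127 RPM. All 4 adrenal libraries therefore lay above every other library in RPM, but the adult and aged ones by a small margin. Scaled, miR-7 was 306502, 372777, 30080.0 and 44753 in adrenal, against at most 93170.2 in another library, and only the 2 younger adrenal libraries lay above all others. With averaged factors the values were 239416, 395409.9, 48557 and 50894. In whole organs fewer cells of a type cannot be told apart from less of a miRNA per cell, here and in all results that follow.

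miR-409b of the imprinted cluster was read at 29907, 41866, 79696 and 74422 RPM from juvenile to aged adrenal. The mean of the other 9 organs was 2565 RPM, and the highest other library was brain of the adolescence stage at 12874 RPM. The groups did not overlap in RPM. Scaled, the adrenal libraries held 19327, 26428, 25753 and 33653 against at most 19985 elsewhere, so the juvenile adrenal fell within the range of the other organs. miR-409a, a miRNA of the same family, was read at 10204, 13584, 10119 and 14806 RPM (12178 ± 2382, SD, n = 4) in adrenal, against a mean of 773 RPM and a maximum of 6239 RPM, in adult brain. Its scaled values of 6594, 8575, 3269.8 and 6695 lay above the other libraries, at most 3743, in all but the adult adrenal.

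**Figure D1:**
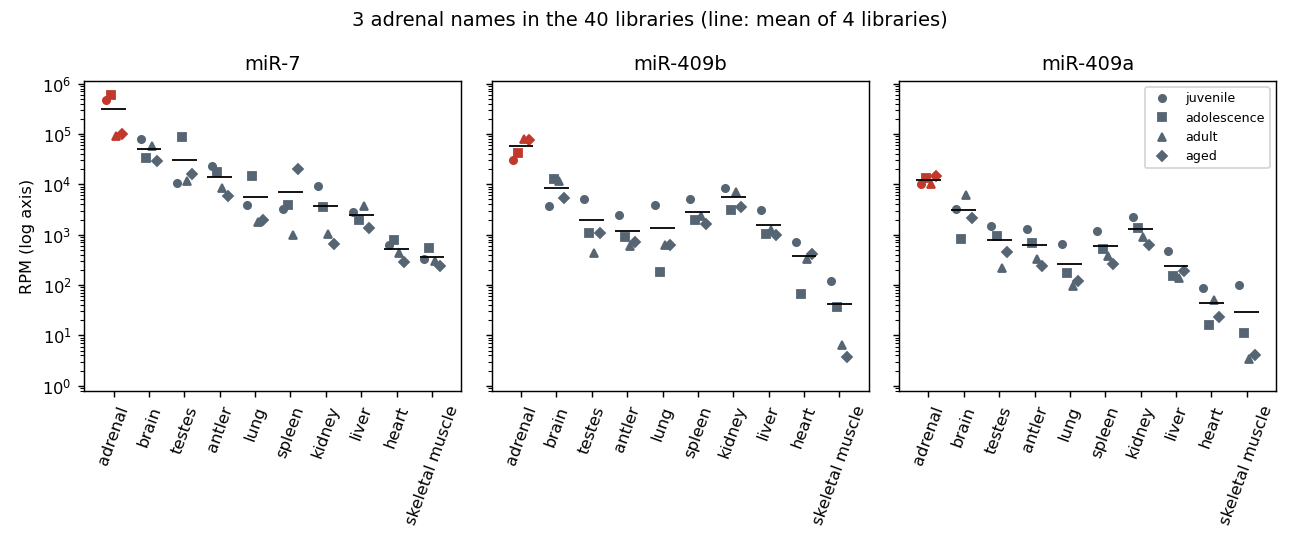
Levels of miR-7, miR-409b and miR-409a in the 40 libraries, in RPM on log axes, with 1 point per library and the organs along the other axis. In RPM the lowest adrenal value of miR-7, 93085 RPM, was above the highest value elsewhere, 85407 RPM. On the scaled values, which are not drawn, the adult and aged adrenal fell below juvenile brain at 93170.2.

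These were the only 3 of the 126 names tested (2.38%) whose 4 adrenal libraries were all above the other 36 in RPM. No name met that condition scaled (0%). By mean RPM, 8 names with at least 10 adrenal reads were at least 2 times as high as in the next organ. miR-7 was 6.22 times as high as in brain (3.70 scaled), miR-409b 6.75 times (2.96 scaled), miR-409a 3.91 times (2.42 scaled) and miR-412 of the imprinted cluster 4.13 times (1.65 scaled). The other 4 were scarce. miR-33a, which lies within the gene of the cholesterol regulator SREBF2, had 89 adrenal reads, of which 16, 70, 0 and 3 came from juvenile to aged. miR-2285ae had 33 reads, miR-544a 29, and miR-375, a miRNA of endocrine cells, 15.

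The question of the main comparison was which miRNAs set adrenal apart from the mean of the other 9 organs. A name was tested with at least 10 reads in 4 or more of the 40 libraries, and it was called at an adjusted p below 0.01 and a log2 difference above 1 in size (limma on log2(RPM + 1) after TMM, organ and stage as terms, Benjamini-Hochberg adjustment). Of 126 names, 9 were higher (7.14%) and 10 lower (7.94%) in adrenal, together 15.1%. On this scale the added 1 RPM understates differences of scarce names. In RPM, without TMM, the median difference over all names moved from -0.05 to 0.92 on the log2 scale, and the split moved to 32 higher and 6 lower. With averaged factors it was 15 higher and 9 lower. The count of 19 rose to 29 without the testes libraries.

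The names with the largest positive differences were miR-7 at 4.78 on the log2 scale (SE 0.56, adjusted p = 2.40e-08), miR-409b at 4.66 (SE 0.52, adjusted p = 1.38e-08) and miR-409a at 4.36 (SE 0.36, adjusted p = 3.77e-11). They were higher in adrenal with each of the 40 libraries as the TMM reference. Of the other 6, the following 4 also belong to the imprinted cluster. miR-433 was read at 994, 1225, 4093 and 6084 RPM in adrenal, 3.79 above the other organs on the log2 scale (SE 0.67, adjusted p = 3.09e-05), but brain of the adolescence stage held 12686 RPM. miR-412, at 22.3, 51.4, 88.6 and 94.1 RPM from 14, 44, 53 and 88 reads, was 3.66 higher (SE 0.41, adjusted p = 1.38e-08). It reached the minimum of reads in the 4 adrenal and 2 other libraries, so adrenal itself brought it into the test. miR-3957, at 412, 793, 1157 and 1126 RPM, was 3.43 higher (SE 0.63, adjusted p = 5.11e-05). miR-541, at 12.8, 14.0, 23.4 and 39.6 RPM from 8 to 37 reads, was 2.44 higher (SE 0.41, adjusted p = 1.72e-05) and passed the minimum in 3 adrenal and 3 other libraries. Each of the 4 overlapped with libraries of other organs, and the juvenile adrenal library held the lowest of its adrenal values.

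The remaining 2 higher names are broadly expressed. miR-374b was read at 699, 465, 567 and 1212 RPM in adrenal against a mean of 224 RPM elsewhere, a log2 difference of 1.65 (SE 0.35, adjusted p = 0.000359), and aged liver at 779.8 RPM lay above 3 of the adrenal libraries. miR-185, which is known to act on cholesterol uptake, was read at 1262, 862, 883 and 696 RPM against a mean of 236 RPM and a maximum of 714 RPM, in testes of the adolescence stage. Its log2 difference was 1.49 (SE 0.33, adjusted p = 0.000656), and it was no longer called without the juvenile (1.19) or the adolescence (1.42) adrenal library.

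**Figure D2:**
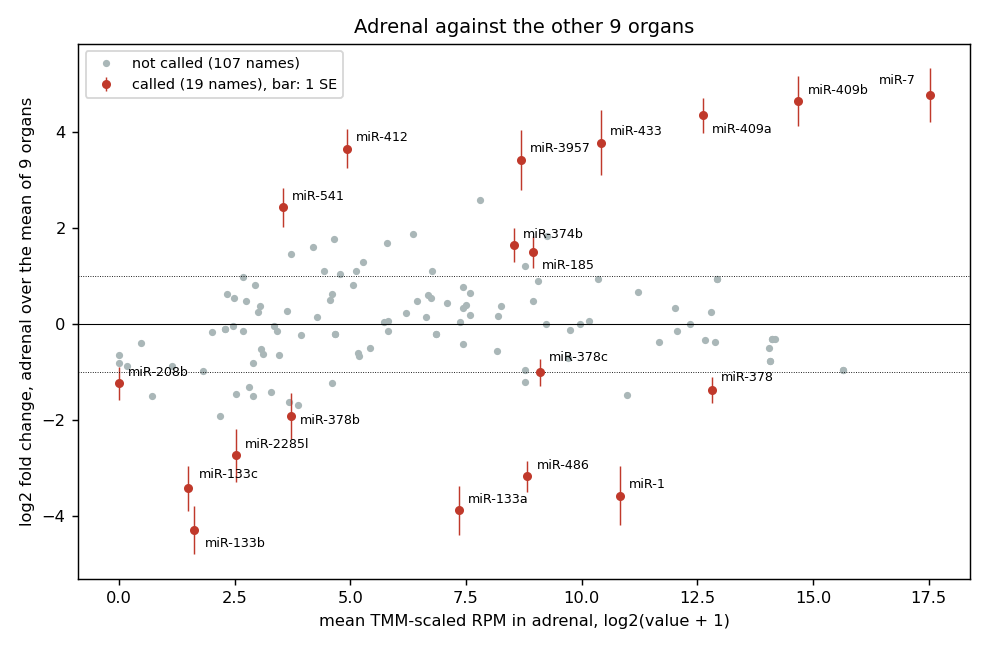
Log2 difference of adrenal from the mean of the other 9 organs for the tested miRNAs after TMM scaling, against their mean scaled level in adrenal. Called names are marked, with the standard error as bars. The 9 higher names ran from 1.49 for miR-185 to 4.78 for miR-7 scaled. In RPM, which is not drawn, all 9 stayed positive, while miR-378c changed sign, from -1.01 to 0.12.

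The imprinted DLK1-DIO3 list held 55 members, of which 30 were named in the files and 27 had adrenal reads. Only 9 passed the minimum of reads. Of these 9, 6 were higher in adrenal against the other organs and none lower, beside 7.14% of all 126 names called higher. Their median log2 difference was 3.43 beside -0.05 over all 126 names. miR-412 and miR-541 reached the minimum only through adrenal, where they were high. Of the other 7, 4 were higher, with a median of 3.43, and since the list was chosen with earlier results known these counts are a description. In RPM all 9 were called higher, beside 38 of the 126 names called in either direction, most of which were higher. Their median in RPM was 4.41 beside 0.92. The 3 members tested and not called were miR-431 (1.88, adjusted p = 0.0135), miR-493 (1.77, adjusted p = 0.0296) and miR-134 (1.46, adjusted p = 0.0373). The other 21 named members were scarce. In adrenal miR-376a, miR-376b, miR-377, miR-410 and miR-494 had 3 reads each over 4 libraries, and miR-370, miR-381 and miR-544b had none. The reads of the list were thus held by a few members. Its sum was 41733, 57848, 95386 and 96904 RPM from juvenile to aged adrenal, or 4.17%, 5.78%, 9.54% and 9.69% of the reads, of which miR-409b was the largest part. The sum in the other 36 libraries ran from 8.63 to 29428 RPM, below every adrenal library. Scaled, the sums of 26969, 36517, 30823 and 43819 in adrenal all lay below the highest other library, at 45684.

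Neuroendocrine and neuronal miRNAs, a list of 26, had 16 named members and 11 with adrenal reads. Of the 6 tested, 2 were higher, miR-7 and miR-433, and the median was 0.81 beside -0.05 over all names. The share of all 126 names called higher was 7.14%. miR-433 is also a member of the imprinted list, and miR-7 is the marker, so the count adds no further name. miR-124a, the main miRNA of neurons, was read at 55.9, 72.5, 8.36 and 12.8 RPM in adrenal, beside 57639.8, 2446, 31967 and 37110.0 RPM in brain. Steroid and cholesterol linked miRNAs, a list of 16 with 12 named, had 3 tested members. None was called, all 3 differences were positive, and the median was 1.11 beside -0.05 over all names. In RPM 2 of the 3 were called higher, beside 38 of all 126 names called in either direction, most of them higher. miR-33a of this list reached the minimum of reads in 2 adrenal and 2 other libraries, so adrenal itself brought it into the test. In adrenal the sums of this list were 512, 498, 331 and 513 RPM.

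Names lower in adrenal were led by miRNAs of striated muscle. All 5 tested of a list of 8 were called lower, with a median of -3.58 (4 of 5 called and -2.48 in RPM), beside 10 of 126 names (7.94%) lower in all, or 6 of 126 in RPM. miR-133b differed by -4.30 (adjusted p = 2.40e-08), miR-133a by -3.89 (adjusted p = 1.63e-07), miR-1 by -3.58 (adjusted p = 2.47e-05) and miR-133c by -3.43 (adjusted p = 3.63e-07). In adrenal miR-133a was read at 128, 152, 851 and 429 RPM, with the adult library highest, and miR-133b had 1 to 6 reads a library. Heart and skeletal muscle are part of the mean of the other organs, and miR-1 was not called without skeletal muscle (-2.18). miR-133a, miR-133b and miR-133c stayed called in all 62 alternatives, which include leaving out heart or skeletal muscle. miR-133b was also called lower against brain (-4.44) and testes (-2.64), but not against kidney (-1.46). miR-1 was still read in adrenal, at 6601, 3124, 1986 and 825 RPM, within the range of the other organs. The heart miRNA miR-208b had no read in 3015773 adrenal reads. Against the floor of 3 reads over the group, 0.995 RPM, it was at least 45.2-fold lower in adrenal than in heart. It reached the minimum in 6 libraries outside adrenal, and its call was lost in 7 of the fits without 1 library and without skeletal muscle (-0.86). miR-206, miR-208a and miR-499 also had no adrenal read, but at a mean of at most 3.69 RPM in any organ their absence is not informative.

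miR-486 of red cells and muscle was read at 993, 608, 1008 and 1019 RPM in adrenal (907 ± 199.7, SD, n = 4). In the other 36 libraries its lowest, median and highest values were 441, 3076 and 40670.2 RPM, and the log2 difference was -3.17 (SE 0.32, adjusted p = 2.80e-09). miR-451, the red cell miRNA, had no adrenal read, but it was at a mean of at most 1.20 RPM in any organ, so its absence is not informative. miR-486 was the only called member of the 3 blood miRNAs tested, whose median was -1.92. miR-2285l, a ruminant miRNA at a mean of 2322 RPM in liver, was read at 9.58, 2.34, 25.1 and 7.48 RPM in adrenal and differed by -2.74 (adjusted p = 0.000232). It was not called without the adolescence adrenal library (-2.21) or without liver (-1.96).

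Of the miR-378 family, miR-378 itself lies within the gene of the metabolic coactivator PPARGC1B. Its members miR-378, miR-378b and miR-378c were called lower on the TMM scale and not in RPM, and miR-378d was not called on the TMM scale at -0.50. miR-378 was read at 17103, 7602, 20132 and 14298 RPM in adrenal, and differed by -1.37 (adjusted p = 0.000150) scaled but by -0.24, not called, in RPM. miR-378b differed by -1.92 (adjusted p = 0.00239) and by -0.82 in RPM, not called. For miR-378c the values were -1.01 (adjusted p = 0.00609) and 0.12, so its direction changed with the scale. The calls were also lost when any 1 of many libraries was left out, among them libraries of antler, brain, kidney, liver and spleen. TMM factors were computed anew in each of these fits, and the part of this rescaling was not tested. miR-378 then lay between -1.02, without the aged adrenal library, and -0.92, without the adolescence spleen library. miR-378 was not called in 13, miR-378b in 15 and miR-378c in 26 of the fits without 1 library, and miR-378c was then as small as -0.56, without the adolescence spleen library.

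Other cell types were checked by their marker lists. Of the epithelial list, miR-200b, miR-429 and miR-205 were named in the files, and none had an adrenal read. miR-429 and miR-205 were at a mean of at most 1.05 RPM in any organ, so their absence is not informative. miR-200b was highest in kidney, at a mean of 47.2 RPM. The median sum of the list in the other libraries was also 0. The liver and kidney epithelium list summed to 6899, 5117, 1451 and 1484 RPM in adrenal, mostly miR-192, with none of 5 tested members called and a median log2 difference of -0.53. The vessel wall list (2 tested) and the mesenchymal list (6 tested) had no called member against the mean of the other organs, and their medians of -0.12 and -0.30 changed sign in RPM, to 0.93 and 0.83. The let-7 family likewise had none of 7 tested members called, with a median of -0.33 scaled and 0.80 in RPM. The medians over all names were -0.05 scaled and 0.92 in RPM. Names suspected to be fragments of other RNAs summed to 823, 344, 4840 and 2304 RPM, and none of 8 tested was called, with a median of -0.66 scaled and 0.20 in RPM. Sums of the muscle list fell within the other organs at 6732, 3283, 2851 and 1265 RPM.

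Adrenal was also set against 3 single organs. The comparisons share the 4 adrenal libraries, so they are given side by side and their overlap is not counted. Against brain, the neural organ, 17 names were higher (13.5%) and 11 lower (8.73%) of 126, together 22.2%. Without the juvenile adrenal library the count of 28 was 18. The largest rises were in connective tissue miRNAs. miR-199a-5p was read at 20365, 13133, 8537 and 13645 RPM in adrenal and at 467, 166, 631 and 456 RPM in brain, with no overlap, a log2 difference of 4.12 (adjusted p = 1.72e-09). miR-199a-3p and its second name miR-3604 were 3.99 higher (adjusted p = 6.46e-09 for miR-3604). In the mesenchymal list 5 of 6 tested names were higher, with a median of 3.95 beside 0.02 over all names. Both this count and this median include miR-199a-3p and miR-3604 as separate names. miR-493 of the imprinted cluster was 3.91 higher (adjusted p = 0.000433), with 57.5, 33.9, 53.5 and 46.0 RPM in adrenal and at most 2.59 RPM in brain.

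The lowest name against brain was miR-124a of neurons, which differed by -10.42 (adjusted p = 7.70e-10). Of the 6 tested names of the neuronal list, 2 were called lower against brain. miR-135b was read at 14.4, 25.7, 0 and 1.07 RPM in adrenal and at 3349, 2.71, 366 and 722 RPM in brain, so the groups overlapped in the adolescence library of brain. Its difference of -5.83 (adjusted p = 0.00256) was not called without the juvenile (-4.55) or the aged (-5.15) brain library. miR-2366, with 2 adrenal reads in all, differed by -5.05 (adjusted p = 3.00e-10), but it reached the minimum in the 4 brain libraries alone, which brought it into the test. The next lowest were miR-133b of muscle at -4.44 and miR-486 at -4.10. Of the let-7 family, 2 of 7 tested names were called lower against brain, let-7b and its second name miR-3596. They share their reads, so they are 1 result, at -2.52 (adjusted p = 0.00298). Over all 126 names 11 were lower against brain (8.73%).

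The adrenal markers were not set apart from brain by the test. miR-7 differed by 1.30 on the log2 scale (adjusted p = 0.197), miR-409b by 1.85 (adjusted p = 0.0403), miR-409a by 1.31 (adjusted p = 0.0368) and miR-412 by 1.19 (adjusted p = 0.0963). In RPM, miR-409b (2.83), miR-409a (2.30) and miR-412 (2.16) were called, and miR-7 (2.28) was not. miR-433 at -1.84 (adjusted p = 0.115) and miR-3957 at -0.58 lay on the brain side without a call, and miR-3957 changed sign in RPM, at 0.40. Over the 9 tested members of the imprinted list, 4 were higher in sign against brain and the median was -0.58 beside 0.02 over all names. In RPM 7 were positive with a median of 0.40, beside 0.82.

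Against kidney, which lies beside the adrenal gland, 5 names were higher (3.97%) and 7 lower (5.56%), together 9.52%. miR-7 was 6.79 higher (adjusted p = 1.68e-08), with 9425, 3533, 1008 and 647 RPM in kidney. miR-409a was 3.48 higher (adjusted p = 1.43e-06), miR-409b 3.45 (adjusted p = 0.000482), miR-412 2.96 (adjusted p = 0.000139) and miR-185 1.80 (adjusted p = 0.00434). The lower names were led by miRNAs of kidney epithelium and of the HOX clusters. miR-196b was read at 9.58, 9.35, 8.36 and 20.3 RPM in adrenal and at 3378, 2694, 2298 and 5272 RPM in kidney, a difference of -7.84 (adjusted p = 3.68e-09). miR-196a differed by -5.95 (adjusted p = 9.54e-08) and miR-192 by -5.56 (adjusted p = 2.76e-06). In the epithelium list 4 of 5 tested were lower. By the sum of this list adrenal ranked 4 among the 10 organs, so kidney was not the only organ above it. The sums of the younger adrenal libraries lay above the median of the other 36 libraries, 3038 RPM, and those of the older ones below. In liver miR-192 was read 3.02, 1.97, 3.05 and 2.70 times as often as miR-30c, against 0.186, 0.141, 0.0280 and 0.0330 times in adrenal. miR-192 was the largest member at 6279.9, 4721, 1194 and 1297 RPM.

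Against testes, the other steroid-making organ of the series, 14 names were higher (11.1%) and 6 lower (4.76%), together 15.9%. The median over all names was 0.51, so the comparison as a whole leaned to adrenal. The testes libraries were also the smallest, with a median of 82124.5 reads. miR-409b was 5.83 higher (adjusted p = 8.53e-08), with 5070.3, 1101, 433 and 1075 RPM in testes. miR-433 was 5.13 higher (adjusted p = 3.81e-05), miR-409a 4.77 (adjusted p = 5.98e-09) and miR-7 3.94 (adjusted p = 9.83e-05). miR-412 had no read in testes, and against a floor of 3 reads over that group it was at least 16.3-fold higher in adrenal. miR-378 was 2.69 higher than in testes (adjusted p = 7.09e-07). The lower names were led by miR-106a, at most 2.14 RPM in adrenal and 18.7 to 134 RPM in testes, with -3.72 (adjusted p = 1.81e-05). It was followed by miR-424-5p with -3.71 (adjusted p = 0.00333) and by miR-1388-5p with -3.15 (adjusted p = 0.00104). miR-424-5p was not called without the adult (-2.62) or aged (-3.24) adrenal library or the juvenile testes library (-3.21).

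**Figure D3:**
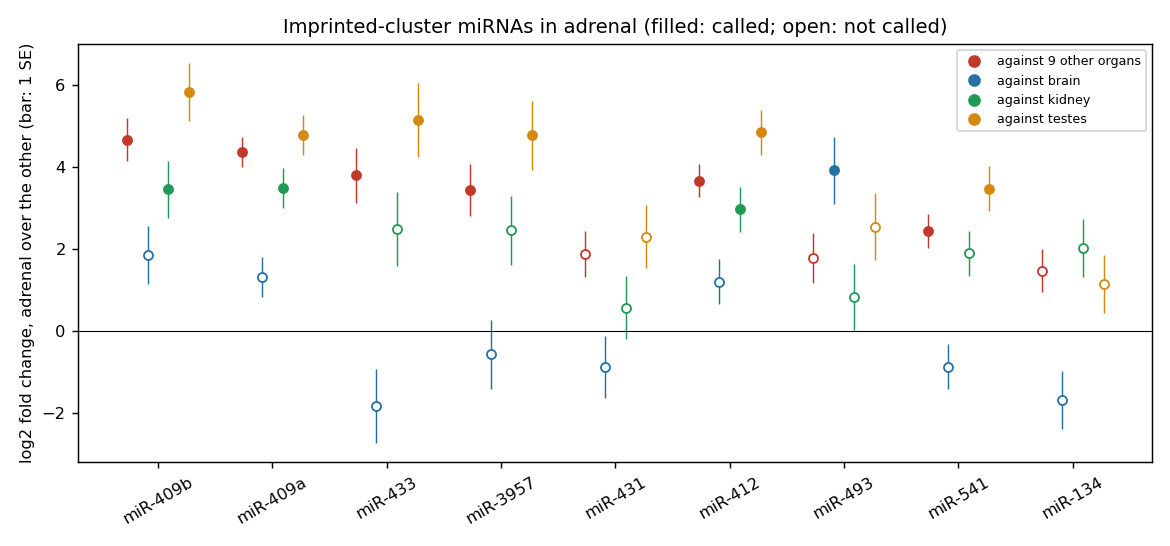
Log2 difference of adrenal for members of the imprinted list after TMM scaling, against the mean of the other 9 organs, brain, kidney and testes, on a linear axis of log2 units. The 9 tested members were all positive against the other organs, kidney and testes, with medians of 3.43, 2.45 and 4.76, while against brain 4 were positive and the median was -0.58 (0.40 in RPM).

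Among the leading names, the widest changes over the stages were a lower miR-7 and a higher let-7b from adolescence to adult. Names suspected to be fragments of other RNAs, a sign of RNA quality, moved at the same step, from 823 and 344 RPM to 4840 and 2304 RPM in sum. Their median between the older and the younger pair was 1.41 on the log2 scale beside -0.23 over all names, with 6 of 8 positive, and their part in the stage differences was not tested. miR-7 went from 474297 and 590536 RPM in the younger pair to 93085 and 98969.8 RPM in the older pair. let-7b, which marks mature tissue, was read at 43940.0, 28887, 197264 and 210676 RPM from juvenile to aged. The older pair lay above the younger pair in let-7b and below it in miR-7, and within each pair the values were close. Scaled, let-7b was 28395, 18235, 63745 and 95266, and 22180.1, 19342, 102902 and 108338 with averaged factors. let-7c (8147, 4641, 17594 and 26531 RPM) and let-7a-5p (4249.9, 2521, 8567 and 13065 RPM) also had both older libraries above both younger ones. let-7i (337, 150, 86.9 and 124 RPM) and miR-98 (168, 103, 53.5 and 66.3 RPM), of the same family, were lower in the older pair. The family, with miR-3596 not counted beside let-7b, held 5.71%, 3.64%, 22.4% and 25.1% of the adrenal reads.

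Ratios within a library do not depend on any scaling. miR-7 was read 10.8 and 20.4 times as often as let-7b in the juvenile and adolescence adrenal, and 0.472 and 0.470 times in the adult and aged. The ratio was lower in the older pair by 4.98 on the log2 scale. In the other organs the same difference ran from -4.64 to 1.14 (median -1.51), and both older libraries lay below both younger ones in 6 of 9 organs. Relative to miR-30c, miR-7 went from 14.1 and 17.6 to 2.19 and 2.51, and 7 of 9 other organs had both older libraries below both younger. Relative to miR-409b it went from 15.9 and 14.1 to 1.17 and 1.33, a separation seen in 1 of 9 other organs. A lower miR-7 in older deer relative to let-7b or miR-30c was thus present in most organs, and the difference between adrenal and the others was tested only in the interaction given below.

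miR-409b per miR-30c was 0.887, 1.25, 1.87 and 1.89 in adrenal. None of the other 9 organs had both older libraries above both younger ones in this ratio, and 4 had both below. The difference between the pairs was 0.84 on the log2 scale in adrenal and ran from -4.18 to 0.91 in the other organs, with spleen above adrenal. Within the imprinted cluster the members did not move as a block. The ratio of miR-409b to miR-409a was 2.93, 3.08, 7.88 and 5.03, and that of miR-433 to miR-409b was 0.0332, 0.0293, 0.0514 and 0.0818. In RPM miR-433, miR-3957 and miR-412 were higher in both older libraries than in both younger ones, and miR-409a was not. With miR-7 left out of the total, miR-433 kept this order, at 1891, 2991, 4513 and 6753 RPM. On that base miR-3957 (783, 1938, 1276 and 1249 RPM) and miR-412 (42.5, 126, 97.7 and 104 RPM) were highest in adolescence. A further change lay within the miR-374 family. miR-374a was read at 1184, 1349.7, 102 and 199 RPM, while miR-374b was at 699, 465, 567 and 1212 RPM, so their ratio was 1.69, 2.90, 0.180 and 0.164. The same separation was found in 3 of 9 other organs.

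**Figure D4:**
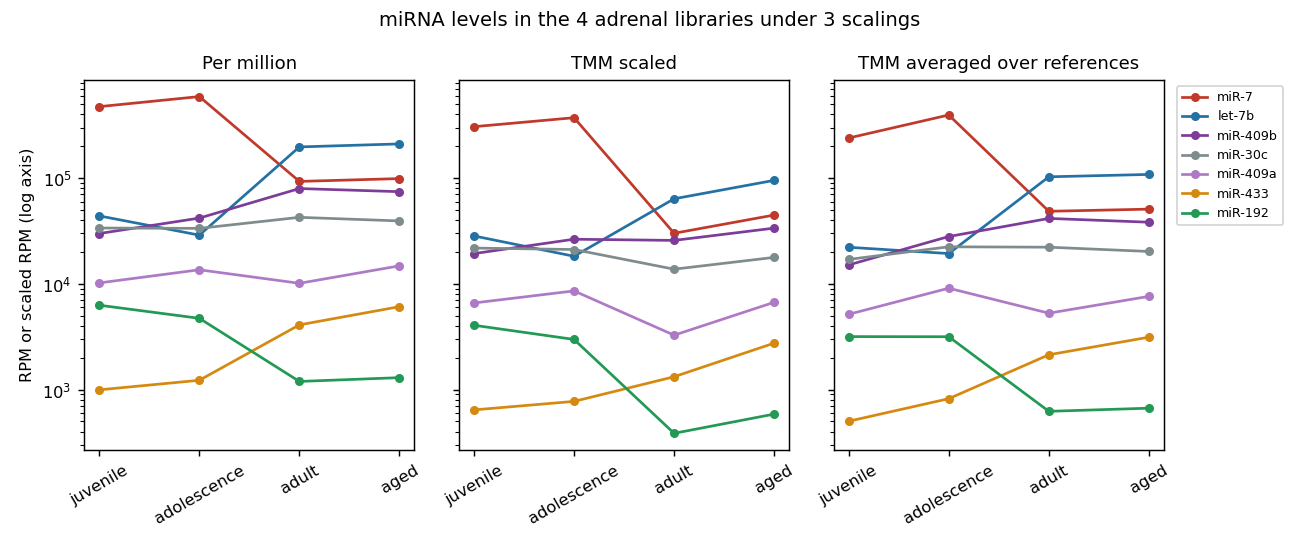
Course of the leading adrenal miRNAs over the 4 stages, in RPM, scaled and with averaged TMM factors, on log axes, with 1 library per point. miR-7 fell from 590536 to 93085 RPM between adolescence and adult while let-7b went from 28887 to 197264 RPM, and both changes kept their direction on the scaled axes.

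Further names had both older libraries on one side of both younger ones, in RPM and scaled. miR-192 of epithelium (values above) and miR-135a (651, 571, 92.0 and 186 RPM) were lower in the older pair. miR-424-5p, of a cluster tied to cell growth, was read 135, 88, 2 and 26 times, and miR-450b of the same cluster 15, 15, 0 and 0 times. miR-215, of the family of miR-192, was read 13, 11, 0 and 0 times, at least 8.28-fold lower in the older pair against a floor of 3 reads over both libraries. miR-214 (897, 460.4, 3463 and 2982 RPM), miR-574 (1082, 667, 5273 and 2624 RPM), miR-197 (811, 820.4, 3461 and 2783 RPM) and miR-339a (4170.1, 3937, 8771 and 18840.1 RPM) were higher. Of 119 names, 47 (39.5%) had both older libraries above both younger ones in RPM and 39 (32.8%) had both below. Scaled, these were 22 (18.5%) and 49 (41.2%), and with averaged factors 40 (33.6%) and 43 (36.1%). The balance of rises and falls therefore depended on the scaling.

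Adult and aged were compared with juvenile and adolescence by limma, with 2 adrenal libraries on each side and the spread taken from all organs. Of 126 names, 1 was called (0.794%), miR-450b, lower by 3.82 on the log2 scale (SE 0.73, adjusted p = 0.00399). It reached the minimum of reads in the 2 younger adrenal and 2 other libraries, so the side where it was high brought it into the test. Its 30 reads in the younger pair and none in the older make it at least 10.3-fold lower against a floor of 3 reads over both libraries. It was called with 22 of the 40 libraries as the TMM reference. It was not called by edgeR or DESeq2, with 10 RPM added in the log, with names as listed or with GC content. No name was called without any 1 of the 4 adrenal libraries. An unadjusted p below 0.05 was found for 25 names. miR-7 differed by -3.20 (SE 0.96, adjusted p = 0.0648) and was not called, with -3.43 to -1.92 over the alternatives. The other large differences also missed the call. The lowest were miR-2285f at -4.45 (adjusted p = 0.0582) and miR-33a at -4.28 (adjusted p = 0.0551), and the highest was miR-2898 at 2.64 (adjusted p = 0.220), which is on the list of suspected fragments. They were followed by miR-424-5p at -4.18 (adjusted p = 0.0189), miR-374a at -3.86 (adjusted p = 0.131), miR-215 at -3.52 (adjusted p = 0.0551), miR-192 at -2.87 (adjusted p = 0.215) and let-7b at 1.78 (adjusted p = 0.256). miR-409b was at 0.38 scaled (adjusted p = 0.853) and was not called, above the median of all names on that scale, -0.23. The median of all names in RPM was 0.36. miR-409a was at -0.68 scaled and 0.06 in RPM.

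Whether the change of adrenal differed from the mean change of the other organs was tested as an interaction. By limma none of 126 names was called (0%), and 13 had an unadjusted p below 0.05. Neither edgeR nor DESeq2 called a name, with 10 and 21 names at that limit. miR-450b had the smallest adjusted p, at -3.16 (adjusted p = 0.0602), and miR-7 was at -1.95 (adjusted p = 0.502).

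The steps between adjacent stages rest on 1 library a side and have no test. A name was counted with at least 10 reads in 1 of the libraries, as up at 2 times or more and as down at 0.5 times or less. From juvenile to adolescence, 7 of 106 names were up (6.6%) and 19 down (17.9%) in RPM. From adolescence to adult, 38 of 110 were up (34.5%) and 27 down (24.5%). From adult to aged, 16 of 105 were up (15.2%) and 11 down (10.5%). The middle step was the widest, with 59.1% of names changed, beside 24.5% and 25.7%. By this share in RPM adrenal ranked 3 among the 10 organs at that step, and 7 and 8 at the first and last. At the last step its rank was 3 scaled and 5 with averaged factors. At the middle step these ranks were 3 and 2, and the first step stayed at 7 on both. Scaled, the first step had 7 up (6.6%) and 20 down (18.9%), the middle step 23 up (20.9%) and 47 down (42.7%) and the last 33 up (31.4%) and 6 down (5.71%), and the TMM factor of the adult library was the largest of the 4. With averaged factors the first step had 15 up (14.2%) and 9 down (8.49%), the middle step 33 up (30%) and 39 down (35.5%) and the last 15 up (14.3%) and 12 down (11.4%).

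**Figure D5:**
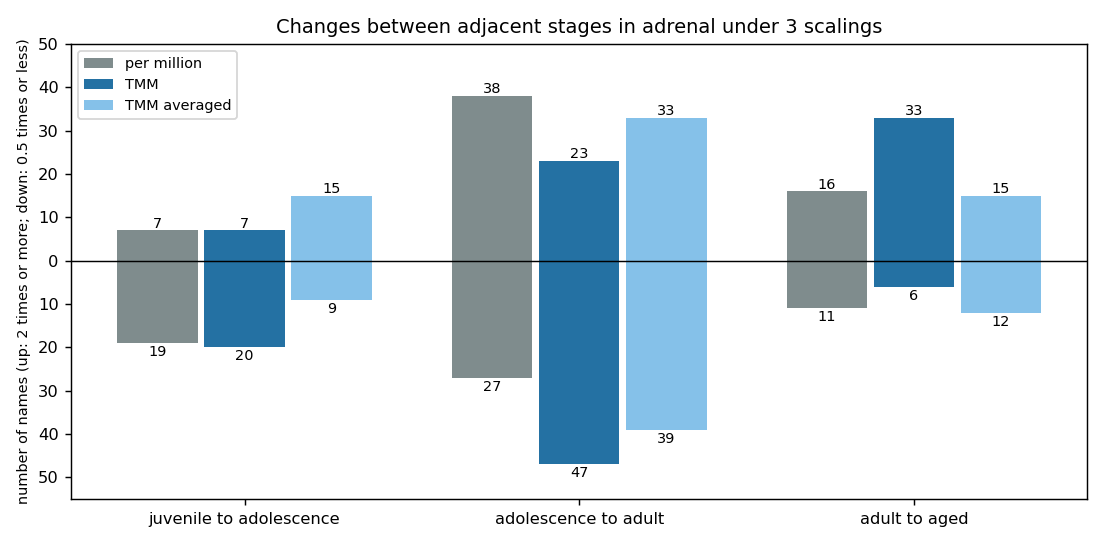
Number of names up (2 times or more) and down (0.5 times or less) at each adrenal stage step, in RPM, scaled and with averaged TMM factors. The step from adolescence to adult changed most names on each scale, with 38 up and 27 down in RPM, but scaled the balance turned to 23 up and 47 down.

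No name rose or fell by these limits at every step. Of 119 names, 38 (31.9%) stayed within the limits at all 3 steps in RPM, 27 scaled and 36 with averaged factors. Names up at the middle step alone numbered 21 in RPM. They included let-7b, and miR-339a was up at both the middle and the last step.

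Likeness between libraries was described by Pearson's r over the 126 tested names on the scaled log2 values. The points share names of high and low abundance, which alone gives a high r. The adrenal libraries had a mean r of 0.944 with each other. The juvenile and adolescence libraries (0.982) and the adult and aged libraries (0.981) were closest, and adolescence against adult was lowest (0.906). The mean r of adrenal was 0.880 with lung, 0.874 with spleen, 0.873 with kidney, 0.859 with testes, 0.838 with liver and 0.828 with brain, and it was lowest with skeletal muscle (0.727). The nearest library outside adrenal was juvenile testes for the juvenile (0.925) and adolescence (0.901) adrenal, and juvenile lung for the adult (0.941) and aged (0.929) adrenal. The adrenal profile as a whole was therefore not nearest to brain, although brain was the next organ for miR-7, miR-409b and miR-409a.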

How the data were processed

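Total RNA of 40 pools of 3 deer (10 organs at 4 stages) was made into small RNA libraries and sequenced. Per the methods of the study, the authors trimmed adapters, dropped short inserts and reads from other kinds of RNA, and assigned what remained to known bovine miRNAs or to predicted ones, which carry numbers (novel_). They deposited RPM values per library, under a header that calls the unit tpm. The values are not divided by length, and names without reads are absent from a table. Each listed value was a whole number of reads within a tolerance of 0.01 reads, which gave the reads and the depth. The precision of scarce names is limited by their reads, and floors of 3 reads cover counting error only.

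Numbered names of antler do not match those of other organs and were left out, and in antler miR-148c was taken as miR-2957. Of the names starting with bta-, 2 antler-only names also had 10 reads in 4 libraries. Levels of second names that share reads (as miR-3596 with let-7b) are uncertain. The miRNA sequences were not used here.

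The comparisons used limma 3.58.1 with a trend in R 4.3.3 on log2(RPM + 1), with TMM factors from edgeR 4.0.16 on the recovered reads, over all 40 libraries. The terms were organ and stage, or organ by maturity with stage within maturity. Alternatives were DESeq2 1.42.0, edgeR's quasi-likelihood test, other scalings, minimums and name handling, the GC content of the library, no stage term, and leaving out each library or organ. The limma script was tested on simulated data. Python 3.11.15, numpy 2.4.6, pandas 2.3.3, scipy 1.17.1 and matplotlib 3.10.9 were used for the rest.

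The stage number pairs the organs, since the same 3 deer gave all organs of a stage. The adrenal libraries deviated from their organ mean with a mean r of 0.118, 0.183, 0.250 and 0.190 to libraries of the same stage. To libraries of other stages the mean r was -0.08, -0.11, -0.04 and -0.01. With single libraries of the same stage r ran from -0.38 to 0.69, -0.59 to 0.82, -0.09 to 0.78 and -0.72 to 0.76, so some moved opposite to adrenal.

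The text names the 10 most abundant adrenal names, all names called against the other organs, miR-7 and miR-409b, up to 4 of each list, up to 6 a direction for maturity, names at least 2 times the next organ, up to 3 a direction against each single organ, and names with the same step throughout. Members described beyond these, as in the ratios and the stage course, were chosen after their values were seen. The markers, lists and comparisons were chosen with earlier results of these data known.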

Additional observations from a re-analysis of the deposited data

Results flagged for a closer look

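In 5 of 52 names tested, 1 adrenal library lay far from the other 3, by a gap that chance gives in about 1 of 20 groups. miR-486 was at 608 RPM in the adolescence library and at 993 to 1019 RPM in the others. miR-196b, a miRNA of the HOX clusters, was at 20.3 RPM in the aged library and at 8.36 to 9.58 RPM in the others. The remaining 3 were scarce names, with miR-2285ae at 38.6 RPM and miR-544a at 30.4 RPM in the adolescence library, and miR-375 of endocrine cells at 10.7 RPM in the aged library.

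Numbered miRNAs, which entered no comparison, were read in adrenal under 85 names, 35 of them with at least 10 reads. Of these, novel_22 had a mean of 293 RPM in adrenal (109, 278, 202 and 585 RPM from juvenile to aged, 974 reads), which was 3.42 times that of kidney, the next organ at 85.8 RPM. novel_52 had a mean of 25.4 RPM, 3.71 times that of kidney, at 71.8, 18.7, 6.69 and 4.28 RPM. Antler is not part of these comparisons, and their difference between organs was not tested.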

How the results depend on the processing

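Without TMM, in RPM, the count against the other organs rose from 19 to 38, and with total reads less miR-7 as the base (added after seeing the data) to 67, where 62 were higher and 5 lower. It was 30 with DESeq2, 29 with no minimum of reads and 14 to 29 when 1 library or organ was left out. Against brain the count of 28 was 44 with DESeq2, 43 with total reads less miR-7 and 18 to 38 with 1 library or organ left out (18 without the juvenile adrenal library, 38 without spleen). Against kidney the count of 12 was 21 with DESeq2. For maturity the 1 call became 0 with edgeR (31 names at an unadjusted p below 0.05), 3 with DESeq2, 2 with no minimum, 0 with names as listed, 0 with GC content, 4 with total reads less miR-7 and 0 to 2 with 1 library or organ left out. The 3 names called by DESeq2 did not include miR-450b. Leaving out an adrenal library for maturity leaves 1 on a side, taken to vary like the other organs. The interaction gave 1 call with no minimum and 0 to 1 with 1 library left out (1 without adult testes).

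The 118 step changes fell to 66 with 50 reads and to 72 at 3 times. From juvenile to adolescence the 7 rises were 2, 3 and 15 (50 reads, 3 times, averaged factors) and the 19 falls were 7 at 3 times and 9 with averaged factors. From adolescence to adult the 38 rises were 23 with TMM, and the 27 falls were 47 with TMM and 10 with 50 reads. From adult to aged the 16 rises were 33, 6 and 3 (TMM, 50 reads, 3 times) and the 11 falls were 6, 6 and 4.

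Without the replicate block, that is with no stage term, the counts were 18 against the other organs, 22 against brain, 10 against kidney, 18 against testes, 1 for maturity and 0 for the interaction. Against the other organs miR-378c and against testes miR-424-5p lost their calls without the replicate block.

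Among the 44 differences of named miRNAs that were followed through every alternative, directions turned in 3 names. miR-378 was 0.37 with total reads less miR-7, and miR-378c was 0.12 in RPM and 0.73 with total reads less miR-7. miR-409b for maturity, at 0.38, was -0.72 with GC content and ran from -0.60, without the juvenile adrenal library, to 1.66 when 1 library or organ was left out. The cause was not tested. Over these 44, the alternatives kept direction and call in 2561 cases, lost the call in 117 and gained it in 5. The top 10 adrenal names were the same with TMM and without each adrenal library, but merging second names brought in miR-22-3p, miR-378 and let-7c.

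Each stage is 1 pool of 3 deer, so a stage difference is a difference between pools. Names with few reads are limited by depth, with 1 read worth 1.07 to 1.67 RPM in adrenal. The choice of TMM reference moved the mean log2 factor of the older against the younger adrenal pair between -0.54 and 0.74.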

Other observations

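Abundant adrenal miRNAs of other cell types had courses of their own. miR-145 of smooth muscle was read at 25956, 18700.0, 78643 and 30037 RPM from juvenile to aged, with the adult library highest. miR-26a was read at 43485, 37672, 27387 and 16884 RPM, each stage below the one before. miR-199a-3p was at 43734, 24657, 29736 and 37528 RPM, with the juvenile and aged libraries highest. miR-22-3p was at 13670.5, 12804, 15932 and 19947 RPM, and it shared all 47709 reads with its second name miR-3600. miR-30a-5p, scarce beside miR-30c, was read at 567, 354, 222 and 136 RPM. These are values of single libraries without a test.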
